A study of Mus musculus with 30 samples.

Results

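The 31 genes of the ATF4, serine and one-carbon programme were followed in 2 mouse cell lines during inhibition of protein synthesis. They were the rows of the deposited count table whose Ensembl identifier maps to a list of symbols, and all 31 were found among 57186 identifiers. They comprise 7 transcription factors, 8 feedback and stress effectors, 7 enzymes of serine and folate metabolism, and 9 enzymes of amino-acid and mitochondrial metabolism. The rule goes by symbol and uses no measured value, but the list was drawn up with earlier results of these data known.

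The study applied cycloheximide (CHX), which blocks the elongation step of translation, at 0.1 µg/mL and took RNA after 0, 1, 2, 5 and 48 h. The NIH/3T3 fibroblasts were kept in DMEM with serum. The CGR8 embryonic stem cells were kept in N2B27 with 2i and LIF, which hold them in a naive state. Both lines carried the genotype given as a ROSA26 SLT knock-in at all times, the 0 h controls included, and the labels do not explain SLT. Each line and time had 3 libraries with the letters A to C, which gave 30 libraries in 10 groups. The labels do not say that replicates were separate cultures, so p-values then measure the spread between these libraries, which may be technical. Untreated cells were sampled at 0 h only, with no untreated group at 48 h or the other times. Cycloheximide and time in culture therefore cannot be told apart, at 48 h above all. The lines also differed in medium, and line and medium cannot be told apart. In bulk RNA, fewer cells expressing a gene and less RNA per cell cannot be told apart either.

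ATF4 is a basic leucine zipper transcription factor whose mRNA is translated when the kinases of the integrated stress response phosphorylate the initiation factor eIF2. It acts as a dimer with related factors and raises genes for amino-acid import, for synthesis of serine, asparagine and proline, and for the mitochondrial folate enzymes that pass carbon units from serine to glycine and formate. It also raises its own brakes, among them Trib3, and Ppp1r15a, which guides the phosphatase that acts on eIF2. Growth signalling through mTORC1 uses the same factor to feed nucleotide synthesis. The deposited table holds RNA only, so ATF4 protein and eIF2 phosphorylation were not analysed here.

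The libraries held 18.2 to 30.5 M counts each (M for mega). Levels are given as CPM, the share of a library's counts scaled to 1 M after TMM normalisation (a correction for differences in RNA composition), and changes as log2 fold changes between times. All 6 stem cell markers checked, Pou5f1 and Nanog among them, were at most 0.377 CPM in NIH/3T3 and at least 373 CPM in CGR8. The collagen gene Col1a1 gave 1600 to 4870 CPM in NIH/3T3, against at most 0.719 CPM in CGR8. But the fibroblast marker Thy1 went the other way, at most 0.0914 CPM in NIH/3T3 and 1.48 to 4.51 CPM in CGR8. Postn was scarce in both lines, at most 0.993 CPM in NIH/3T3 and 0.0346 CPM in CGR8. Of the 30 libraries, the 4 farthest from their replicates were CGR8 2 h A at 0.386, NIH/3T3 1 h C at 0.370, NIH/3T3 2 h A at 0.356 and CGR8 0 h B at 0.343. These are root mean square log2 deviations from the group mean, over the genes kept by a filter on low counts. The next library was CGR8 5 h A at 0.316, so no wide gap set the 4 apart.

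The element that ATF4 dimers are known to bind combines a C/EBP site with an ATF site. Its core was searched as the letters TGATGNAA on both strands in the 250 bases before each gene's start, in RefSeq promoters of build GRCm38.p6. It was present before 8 of the 29 members with an entry in the promoter table (27.6%), against 1056 of 27025 genes in all (3.91%). The members were listed as genes of the ATF4 programme, so their higher share may follow from how the list was chosen. The matches below are those of Chac1, Jdp2, Nupr1, Pck2, Pycr1 and Asns, which appear in the results that follow. Got1 and Vldlr, which also appear there, held the other matches and are not printed. Each is printed 5′ to 3′ on the gene's strand with the element in capitals, and an element that lies on the opposite strand reads TTNCATCA.
Asns, chr6:7693210-7693252, minus strand: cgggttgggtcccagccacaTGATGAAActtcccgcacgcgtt
Chac1, chr2:119351029-119351076, plus strand: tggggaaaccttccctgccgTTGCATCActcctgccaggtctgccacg
Jdp2, chr12:85599363-85599410, plus strand: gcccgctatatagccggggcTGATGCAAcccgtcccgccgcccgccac
Nupr1, chr7:126625553-126625600, minus strand: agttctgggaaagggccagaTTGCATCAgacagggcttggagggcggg
Pck2, chr14:55540143-55540190, plus strand: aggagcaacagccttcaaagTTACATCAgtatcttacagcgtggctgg
Pycr1, chr11:120643824-120643871, minus strand: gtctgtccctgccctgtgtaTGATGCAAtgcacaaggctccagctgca
A match is a description of these letters and shows no binding. The first base of the element lay 23 bases before the start in Asns, 33 in Jdp2, 103 in Pck2 and Pycr1, 110 in Nupr1 and 193 in Chac1.

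Most of the members tested were lower at 5 h and again at 48 h than in the untreated cells of 0 h, in both lines. Here a call means a p under 0.05 in edgeR's quasi-likelihood test after Benjamini-Hochberg adjustment over the whole table. Of the members, 29 passed the filter on low counts in NIH/3T3 and 31 in CGR8. Vldlr, with 0 to 2 counts per library, and Gdf15, with 1 to 17, were not tested in NIH/3T3.

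At 1 h no member was called in NIH/3T3 by edgeR or DESeq2, where 0.732% of 13941 genes were called, and 2 members had an unadjusted p under 0.05 in edgeR (Stc2 and Lonp1). The count was also 0 without library C of that time. In CGR8 at 1 h, 2 members were lower (Atf4 and Gdf15), against 0.27% of 15933 genes called in either direction and 0.126% lower. That count did not hold with fewer libraries: edgeR called 1 member (Atf4) without library B of 0 h and 0 without any 1 of the other 5 libraries. At 2 h in NIH/3T3, 4 members were higher and 6 lower, against 35% of genes called, 16.1% higher and 18.9% lower. The share of members called there (34.5%) was near the background. Library size alone as the scaling gave 4 higher and 11 lower, and without library A of 2 h the counts were 4 higher and 12 lower, with Shmt2, Mthfd2, Mthfd1l, Aldh18a1, Pycr1, Pck2 and Gpt2 added and Trib3 lost. At 2 h in CGR8, 13 members were lower and none was higher, against 19.9% of genes called, 8.97% higher and 11% lower. There edgeR gave 1 higher member at an unadjusted p under 0.05 and DESeq2 called 1 higher (Cth). Without library A of 2 h, 17 members were lower in CGR8 (Atf5, Shmt2, Mthfd2 and Aldh18a1 were added), without library A of 0 h 7 were, and without library B of 0 h 11 were.

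At 5 h in NIH/3T3, 3 members were higher and 19 lower. The background was 51% of genes called, 24% higher and 27.1% lower. The median log2 fold change of the 29 members was -0.51, beside -0.01 over all genes tested. At 5 h in CGR8, 3 members were higher and 21 lower, against 52.1% of genes called, 24.9% higher and 27.2% lower. The median there was -0.69 over 31 members, beside -0.01 over all genes. The fall was at least 2-fold (a log2 change of -1 or below) in 12 members in CGR8, against 8.27% of genes, and in 4 members in NIH/3T3, against 4.91%. Without library B of 0 h, CGR8 at 5 h had 4 higher and 18 lower members.

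At 48 h in NIH/3T3, 6 members were higher and 18 lower, against 52.3% of genes called, 26.7% higher and 25.6% lower. The members' median was -0.66, beside -0.01 over all genes. At 48 h in CGR8, 2 members were higher and 23 lower, against 27.8% of genes called, 12.2% higher and 15.6% lower. The median there was -0.90 over 31 members, beside 0.00 over all genes. Without library B of 0 h the counts in CGR8 were 2 and 19. The comparisons of 1, 2, 5 and 48 h share the 0 h libraries of their line, so their counts are not independent of each other.

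**Figure D1:**
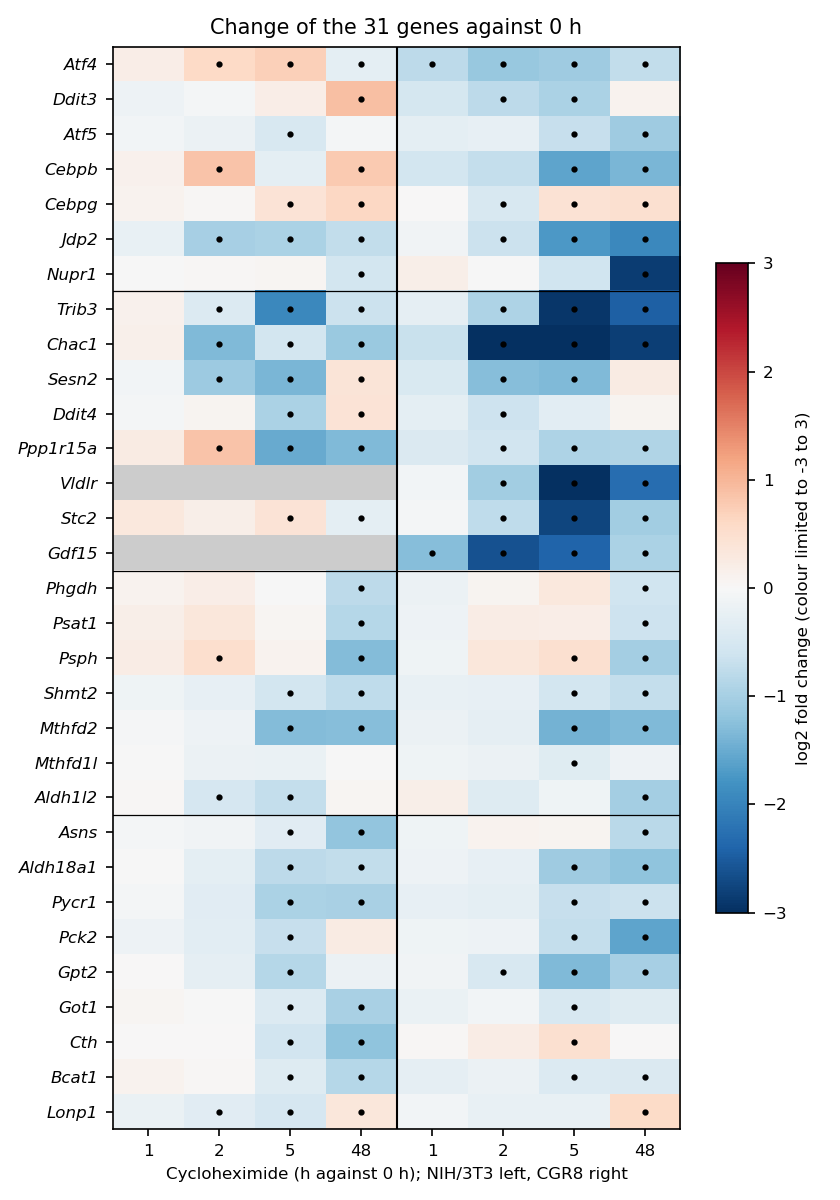
Log2 fold change against 0 h of the 31 genes (rows, in the order of the 4 roles, separated by lines) at 1, 2, 5 and 48 h in NIH/3T3 (left 4 columns) and CGR8 (right 4 columns). Blue is lower, red is higher, grey was not tested, and a dot marks an edgeR adjusted p under 0.05. Dots are few at 1 h (0 in NIH/3T3 and 2 in CGR8) and cover 22 and 24 genes at 5 h.

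Of the transcription factors, Atf4 itself (ENSMUSG00000042406) moved in opposite directions in the lines at 2 and 5 h. The difference between the lines in the change was called for 1, 2, 3 and 5 of the 7 factors at 1, 2, 5 and 48 h, against 0.16%, 2.02%, 13.3% and 21.9% of all genes. In NIH/3T3 its level was 412, 418 and 458 CPM at 0 h, 489, 512 and 442 CPM at 1 h, 514, 684 and 720.3 CPM at 2 h, 729, 671 and 654 CPM at 5 h and 368, 362 and 339.8 CPM at 48 h. All 3 libraries of 2 h and of 5 h lay above all 3 of 0 h, and all 3 of 48 h lay below them. On the log2 scale it rose by 0.60 (SE 0.10, edgeR adjusted p = 0.000579) at 2 h and rose by 0.71 (SE 0.10, edgeR adjusted p = 4.38e-05) at 5 h. At 48 h it fell by 0.30 (SE 0.10, edgeR adjusted p = 0.0237), a call that was lost with library size alone as the scaling (adjusted p = 0.111) and without library C of 0 h, B of 48 h or C of 48 h (adjusted p of 0.0926, 0.052 and 0.0816).

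In CGR8 the Atf4 level was 146, 134 and 141 CPM at 0 h, 77.6, 84.5 and 81.6 CPM at 1 h, 61.4, 64.1 and 70.5 CPM at 2 h, 88.6, 57.4 and 62.04 CPM at 5 h and 93.03, 88.04 and 75.2 CPM at 48 h. Every treated library lay below every untreated one, already at 1 h. It fell by 0.79 (SE 0.14, edgeR adjusted p = 0.0155) at 1 h, and that call was lost without any 1 of the 6 libraries other than 0 h B, at adjusted p of 0.0714 to 0.119. It fell by 1.13 (SE 0.14, edgeR adjusted p = 9.15e-05) at 2 h, fell by 1.07 (SE 0.14, edgeR adjusted p = 1.43e-05) at 5 h and fell by 0.73 (SE 0.13, edgeR adjusted p = 0.000784) at 48 h. The difference between the lines in the change of Atf4 was itself called at 1 h (-0.95, SE 0.18, edgeR adjusted p = 0.00878), and at 5 h it was -1.69 (SE 0.18, edgeR adjusted p = 2.34e-07). The difference at 48 h was -0.45 (SE 0.18, edgeR adjusted p = 0.0719) and was not called.

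Cebpg, which pairs with ATF4 on the composite element, was the 1 member called higher at 5 h in both lines, where it rose by 0.42 (SE 0.08, edgeR adjusted p = 0.0005) in NIH/3T3 and rose by 0.43 (SE 0.11, edgeR adjusted p = 0.00458) in CGR8. In NIH/3T3 its libraries went from 29.4, 31.01 and 27.9 CPM at 0 h to 38.8, 37.3 and 39.1 CPM at 5 h. In CGR8 they went from 31.9, 25.6 and 27.2 CPM to 37.4, 39.02 and 41.8 CPM, and in neither line did the groups overlap. It was again higher in both lines at 48 h, by 0.62 and 0.48. At 2 h it was lower in CGR8, a call lost without 0 h A (edgeR adjusted p = 0.0656), and in NIH/3T3 it was not called.

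Jdp2, a repressor of AP-1 sites whose promoter window holds the element above, fell in both lines at 2, 5 and 48 h. At 5 h it fell by 0.94 (SE 0.12, edgeR adjusted p = 8.18e-06) in NIH/3T3, from 22.3, 23.2 and 26.5 to 12.9, 11.6 and 12.1 CPM. In CGR8 it fell by 1.73 (SE 0.21, edgeR adjusted p = 1.12e-05), from 4.09, 5.07 and 4.17 to 1.46, 1.17 and 1.52 CPM. The 2 h call in CGR8 was lost without any 1 of 0 h A, B or C or 2 h B (adjusted p of 0.0623 to 0.0909). Atf5 (ENSMUSG00000038539), a factor of the same stress response, fell by 0.49 (SE 0.16, edgeR adjusted p = 0.016) at 5 h in NIH/3T3 and fell by 0.69 (SE 0.15, edgeR adjusted p = 0.00134) in CGR8. The NIH/3T3 call was lost without 0 h C, 5 h A or 5 h C (adjusted p of 0.0519 to 0.0857). In CGR8 its level was 26.9, 29.3 and 25.7 CPM at 0 h, 20.8, 18.3 and 13.6 CPM at 5 h and 13.4, 13.3 and 12.9 CPM at 48 h, with no overlap between 0 h and either later time. Atf5 at 48 h fell by 1.06 in CGR8 and was -0.06 (SE 0.15, edgeR adjusted p = 0.75) in NIH/3T3.

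Cebpb, another partner, went in opposite directions at 48 h. In NIH/3T3 its level was 36.6, 29.5 and 35.9 CPM at 0 h, 83.2, 48.9 and 48.04 CPM at 2 h, 25.6, 26.4 and 29.4 CPM at 5 h and 57.05, 59.3 and 63.9 CPM at 48 h. It rose by 0.85 (SE 0.17, edgeR adjusted p = 0.00137) at 2 h and rose by 0.79 (SE 0.17, edgeR adjusted p = 0.000838) at 48 h, with a value of -0.29 (SE 0.17, edgeR adjusted p = 0.158) at 5 h. Library A of 2 h stood above the other libraries of that time, and without it the 2 h change was 0.55 (edgeR adjusted p = 0.000711). In CGR8 it was scarce, with 33 to 54 counts per library at 0 h, 10 to 15 at 5 h and 8 to 25 at 48 h. There it fell by 1.58 (SE 0.41, edgeR adjusted p = 0.00418) at 5 h and fell by 1.38 (SE 0.39, edgeR adjusted p = 0.0143) at 48 h. The last call was lost without 0 h B, 48 h A or 48 h C (adjusted p of 0.0525 to 0.079).

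Nupr1 (ENSMUSG00000030717), a small stress-induced partner of chromatin and transcription factors, was called lower in both lines at 48 h and at no earlier time. In CGR8 its level was 17.4, 16.7 and 19.4 CPM at 0 h, 19.2, 17.02 and 18.1 CPM at 2 h, 12.97, 13.6 and 10.1 CPM at 5 h and 4.38, 1.82 and 1.21 CPM at 48 h. The 5 h libraries already lay below those of 0 h, with a change of -0.61 (SE 0.25, edgeR adjusted p = 0.0504), and at 48 h it fell by 2.85 (SE 0.28, edgeR adjusted p = 2.91e-06). In NIH/3T3 it fell by 0.54 (SE 0.12, edgeR adjusted p = 0.00161) at 48 h.

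Ddit3, which encodes the death-associated factor CHOP, overlaps the methionyl-tRNA synthetase gene on the opposite strand, and use of strand in the counting is not given in the sources used here. In NIH/3T3 it rose by 0.90 (SE 0.13, edgeR adjusted p = 4.12e-05) at 48 h, from 8.31, 8.52 and 10.4 to 17.1, 16.6 and 18.4 CPM. In CGR8 it fell by 0.95 (SE 0.19, edgeR adjusted p = 0.000704) at 5 h, from 6.42, 5.43 and 5.07 to 3.55, 3.14 and 2.46 CPM, and at 48 h the value was 0.11 (SE 0.18, edgeR adjusted p = 0.684). The same uncertainty of overlapping exons applies to Atf5, Cebpb, Cebpg, Jdp2, Ppp1r15a, Psph, Shmt2, Aldh1l2, Pck2 and Bcat1. Ddit3 and Cebpg also had an overlap on the same strand, which use of strand would not separate. These were with the other Ddit3 identifier, which had 0 counts, and with Gm44836.

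**Figure D2:**
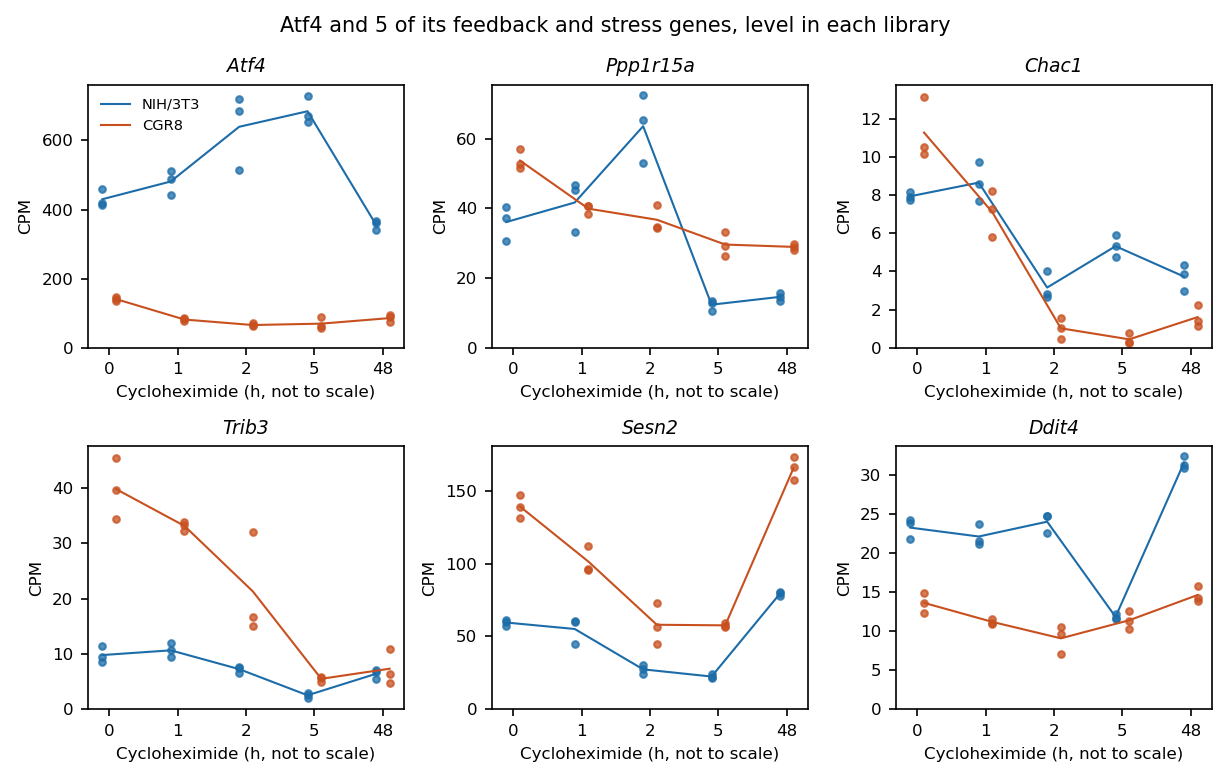
Level in CPM (y axis, from 0) of Atf4 and 5 feedback and stress genes in each library (points) against hours of cycloheximide (x axis, not to scale), with lines through the means of 3 libraries. Atf4 stood at 654 to 729 CPM at 5 h in NIH/3T3 and at 57.4 to 88.6 CPM in CGR8, and Sesn2 was lowest at 2 to 5 h and highest at 48 h in both lines.

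At 5 h the feedback and stress effectors had the lowest median change of the 4 roles in each line. Of these, 5 of the 6 tested in NIH/3T3 and 7 of the 8 tested in CGR8 were lower, with 1 higher in NIH/3T3 (Stc2), where 27.1% and 27.2% of all genes were lower. Their median log2 fold change was -1.16 in NIH/3T3 and -2.57 in CGR8, beside -0.01 over all genes in each line.

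Trib3 (ENSMUSG00000032715) encodes a pseudokinase that binds ATF4 and holds back its activity. Its level in NIH/3T3 was 8.56, 9.38 and 11.4 CPM at 0 h, 7.47, 6.57 and 7.66 CPM at 2 h, 2.93, 2.05 and 2.51 CPM at 5 h and 5.42, 6.65 and 7.09 CPM at 48 h. The CGR8 libraries held 39.7, 45.5 and 34.4 CPM at 0 h, 32.1, 16.7 and 15.1 CPM at 2 h, 5.87, 5.62 and 4.96 CPM at 5 h and 10.9, 6.39 and 4.68 CPM at 48 h. The groups of 0 h and 5 h were far apart in both lines, and library A of 2 h in CGR8 lay near its untreated level while B and C had dropped. At 5 h Trib3 fell by 1.94 (SE 0.17, edgeR adjusted p = 2.87e-07) in NIH/3T3 and fell by 2.92 (SE 0.29, edgeR adjusted p = 1.8e-06) in CGR8. The 2 h calls were less firm. In NIH/3T3 the fall of 0.41 (edgeR adjusted p = 0.042) was lost under DESeq2 (0.0509), RLE scaling (0.0514) and 5 of the libraries left out in turn (adjusted p of 0.0558 to 0.232). In CGR8 the fall of 0.93 (edgeR adjusted p = 0.0225) was lost without 4 of the libraries in turn, at adjusted p of 0.0519 to 0.135.

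Chac1 (ENSMUSG00000027313) encodes an enzyme that cleaves glutathione. Its level in NIH/3T3 was 7.91, 7.75 and 8.18 CPM at 0 h, 4.004, 2.65 and 2.81 CPM at 2 h, 5.9, 5.33 and 4.75 CPM at 5 h and 4.32, 3.89 and 2.99 CPM at 48 h. CGR8 cells had 10.5, 13.2 and 10.2 CPM at 0 h, 7.27, 8.25 and 5.8 CPM at 1 h, 1.55, 1.04 and 0.454 CPM at 2 h, 0.228, 0.76 and 0.312 CPM at 5 h and 2.26, 1.41 and 1.13 CPM at 48 h. No treated group from 2 h on overlapped its 0 h group in either line. The 5 h libraries of CGR8 held 5 to 15 counts of Chac1, against 249 to 334 at 0 h. At 2 h it fell by 1.32 (SE 0.17, edgeR adjusted p = 3.9e-05) in NIH/3T3 and by 3.51 (SE 0.33, edgeR adjusted p = 1.25e-05) in CGR8. The difference between the lines was -2.14 (SE 0.38, edgeR adjusted p = 0.000781) at 2 h.

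Sesn2 and Ddit4 encode brakes on mTORC1, the kinase complex that couples amino acids to growth. Sesn2 (ENSMUSG00000028893) had a level in NIH/3T3 of 61.5, 57.4 and 59.9 CPM at 0 h, 30.6, 23.9 and 27.5 CPM at 2 h, 21.2, 23.98 and 22.02 CPM at 5 h and 77.9, 80.4 and 80.2 CPM at 48 h. The corresponding CGR8 levels were 139, 148 and 132 CPM at 0 h, 72.8, 56.5 and 44.8 CPM at 2 h, 56.96, 59.4 and 56.6 CPM at 5 h and 174, 167 and 158 CPM at 48 h. In both lines the 5 h libraries lay below, and the 48 h libraries above, all 0 h libraries. At 5 h it fell by 1.38 (SE 0.12, edgeR adjusted p = 2.56e-07) in NIH/3T3 and fell by 1.33 (SE 0.14, edgeR adjusted p = 2.55e-06) in CGR8, and the difference between the lines was 0.14 (SE 0.18, edgeR adjusted p = 0.7). At 48 h it rose by 0.39 (SE 0.11, edgeR adjusted p = 0.00815) in NIH/3T3, while the value in CGR8 was 0.24 (SE 0.13, edgeR adjusted p = 0.196). Ddit4 fell by 0.94 (SE 0.09, edgeR adjusted p = 6.95e-07) at 5 h in NIH/3T3, from 21.7, 24.2 and 23.8 to 11.6, 11.7 and 12.2 CPM, and was -0.31 (SE 0.14, edgeR adjusted p = 0.0614) in CGR8, where the groups were 13.6, 14.8 and 12.4 and 11.3, 12.6 and 10.3 CPM. In CGR8 it had fallen at 2 h, by 0.61 (SE 0.14, edgeR adjusted p = 0.00666).

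Ppp1r15a (ENSMUSG00000040435) encodes GADD34, the subunit that brings a phosphatase to eIF2. The NIH/3T3 libraries held 37.4, 30.6 and 40.3 CPM at 0 h, 52.96, 65.5 and 72.5 CPM at 2 h, 12.96, 10.6 and 13.5 CPM at 5 h and 15.8, 14.6 and 13.4 CPM at 48 h. It was above all untreated libraries at 2 h and below all of them at 5 and 48 h. It rose by 0.85 (SE 0.14, edgeR adjusted p = 0.000443) at 2 h, fell by 1.52 (SE 0.15, edgeR adjusted p = 9.62e-07) at 5 h and fell by 1.33 (SE 0.15, edgeR adjusted p = 2.04e-06) at 48 h. In CGR8 it showed no rise at 2 h: it fell by 0.57 (SE 0.10, edgeR adjusted p = 0.00207) then, from 52.7, 57.05 and 51.6 to 41.1, 34.7 and 34.5 CPM, and by 0.91 (SE 0.10, edgeR adjusted p = 6.2e-06) at 5 h. The difference between the lines at 2 h was -1.37 (SE 0.19, edgeR adjusted p = 1.85e-05).

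Stc2 and Gdf15 encode secreted proteins of the stress response, and Vldlr a lipoprotein receptor. Stc2 moved in opposite directions at 5 h. In NIH/3T3 it rose by 0.41 (SE 0.09, edgeR adjusted p = 0.00116), from 18.2, 18.2 and 19.3 to 23.3, 25.7 and 23.2 CPM. In CGR8 it fell by 2.75 (SE 0.27, edgeR adjusted p = 1.46e-06), from 4.6, 3.63 and 4.3 CPM to 1.001, 0.456 and 0.468 CPM, the latter 9 to 22 counts per library. The difference between the lines was -3.08 (SE 0.25, edgeR adjusted p = 3.92e-09). Gdf15 in CGR8 fell within 1 h, from 5.01, 5.07 and 4.91 to 2.03, 2.46 and 1.73 CPM, by 1.27 (SE 0.25, edgeR adjusted p = 0.0459). Leaving out any 1 of those 6 libraries, or scaling by library size alone, ended that call (adjusted p of 0.0725 to 0.335). At 2 h it fell by 2.61 (SE 0.28, edgeR adjusted p = 2.89e-05), to 0.945, 0.968 and 0.568 CPM, and at 48 h it stood at 3.94, 1.86 and 2.06 CPM. Vldlr in CGR8 had 32 to 63 counts per library at 0 h, 2 to 5 at 5 h and 5 to 14 at 48 h, and was called lower at 2, 5 and 48 h (edgeR adjusted p of 0.0269, 8.18e-06 and 0.000145). Its 2 h call was lost without 0 h A, 0 h C or 2 h C (adjusted p of 0.0821 to 0.0976).

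The serine pathway proper runs from 3-phosphoglycerate through Phgdh, Psat1 and Psph, and none of these was lower at 5 h in either line. At 5 h Phgdh had changes of -0.02 (SE 0.14, edgeR adjusted p = 0.923) in NIH/3T3 and 0.31 (SE 0.16, edgeR adjusted p = 0.12) in CGR8, where it rose by 0.48 without 0 h B (adjusted p = 0.0267). Psat1 had changes of 0.07 (SE 0.16, edgeR adjusted p = 0.752) and 0.20 (SE 0.18, edgeR adjusted p = 0.352). At 48 h all of them were lower in both lines.

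Psph (ENSMUSG00000029446), which removes the phosphate in the last step, stood in NIH/3T3 at 32.1, 33.5 and 34.8 CPM at 0 h, 49.4, 47.4 and 42.7 CPM at 2 h, 37.02, 36.3 and 31.6 CPM at 5 h and 13.1, 14.1 and 14.6 CPM at 48 h. For CGR8 the levels were 47.96, 57.2 and 44.2 CPM at 0 h, 75.5, 47.04 and 70.9 CPM at 2 h, 71.8, 85.5 and 57.8 CPM at 5 h and 30.1, 23.97 and 20.6 CPM at 48 h. In both lines all 48 h libraries lay below all others of their line. It rose by 0.51 (SE 0.14, edgeR adjusted p = 0.0117) at 2 h in NIH/3T3 and rose by 0.47 (SE 0.18, edgeR adjusted p = 0.0345) at 5 h in CGR8. The latter call was lost under scaling by library size alone (0.0725) and without 0 h A, 0 h C, 5 h A or 5 h B (adjusted p of 0.0602 to 0.161). By 48 h Psph fell by 1.29 (SE 0.15, edgeR adjusted p = 2.82e-06) in NIH/3T3 and fell by 1.01 (SE 0.18, edgeR adjusted p = 0.000573) in CGR8.

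Psat1 (ENSMUSG00000024640), the transaminase of the pathway, went in NIH/3T3 from 598, 595 and 608 CPM at 0 h to 347, 332 and 332 CPM at 48 h, and in CGR8 from 472, 688 and 476 to 378, 353 and 344 CPM. At 48 h it fell by 0.86 (SE 0.16, edgeR adjusted p = 0.000344) in NIH/3T3 and fell by 0.62 (SE 0.18, edgeR adjusted p = 0.0154) in CGR8. Phgdh, the entry enzyme, fell by 0.79 (SE 0.15, edgeR adjusted p = 0.000282) in NIH/3T3 and fell by 0.60 (SE 0.16, edgeR adjusted p = 0.0116) in CGR8. Both CGR8 calls were lost without 0 h B (adjusted p of 0.105 for Psat1 and 0.0781 for Phgdh) and without 48 h C (0.057 and 0.0586), and that of Psat1 also without 48 h B (0.053). The outlying libraries NIH/3T3 1 h C and 2 h A held 897 and 912 CPM of Psat1, above the 536.7 to 666.8 CPM of the other libraries of those times. An annotated pseudogene, Phgdh-ps1, could share reads with Phgdh.

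Mthfd2 (ENSMUSG00000005667), the mitochondrial folate enzyme that oxidises the carbon unit taken from serine, dropped earlier. NIH/3T3 cells had 102, 95.8 and 106 CPM at 0 h, 106, 78.00 and 83.8 CPM at 2 h, 41.9, 38.1 and 39.4 CPM at 5 h and 43.04, 42.7 and 42.8 CPM at 48 h. CGR8 cells held 109, 134 and 106 CPM at 0 h, 128, 82.6 and 82.99 CPM at 2 h, 43.3, 51.2 and 41.5 CPM at 5 h and 54.9, 46.3 and 39.5 CPM at 48 h. The 5 h and 48 h libraries lay below all of 0 h in both lines, and below all of 2 h. At 5 h it fell by 1.31 (SE 0.11, edgeR adjusted p = 1.68e-07) in NIH/3T3 and fell by 1.41 (SE 0.16, edgeR adjusted p = 6.72e-06) in CGR8. The difference between the lines was -0.01 (SE 0.20, edgeR adjusted p = 1.0), and its change from 5 to 48 h was 0.04 (SE 0.11, edgeR adjusted p = 0.729) in NIH/3T3 and 0.09 (SE 0.16, edgeR adjusted p = 0.643) in CGR8.

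Shmt2, which moves the carbon unit from serine to folate in mitochondria, fell by 0.56 (SE 0.11, edgeR adjusted p = 0.000482) at 5 h in NIH/3T3 and fell by 0.55 (SE 0.14, edgeR adjusted p = 0.00379) in CGR8. It stayed lower at 48 h, by 0.76 and 0.71. Mthfd1l, which releases the unit as formate, was not called at 48 h in either line, at -0.00 (SE 0.09, edgeR adjusted p = 0.981) in NIH/3T3 and -0.14 (SE 0.11, edgeR adjusted p = 0.388) in CGR8. At 5 h in CGR8 it fell by 0.37 (SE 0.11, edgeR adjusted p = 0.0128), with overlapping groups, and that call was lost without 0 h B (0.0991) or 5 h A (0.068). Aldh1l2, which burns formyl-folate to CO2 in mitochondria, fell by 0.72 (SE 0.10, edgeR adjusted p = 3.18e-05) at 5 h in NIH/3T3, from 30.2, 32.1 and 30.6 to 17.6, 18.6 and 18.9 CPM, and was back at 31.9, 32.6 and 34.2 CPM at 48 h. In CGR8 it fell by 1.02 (SE 0.20, edgeR adjusted p = 0.00116) at 48 h, from 2.9, 2.48 and 3.23 to 1.57, 1.45 and 1.25 CPM.

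**Figure D3:**
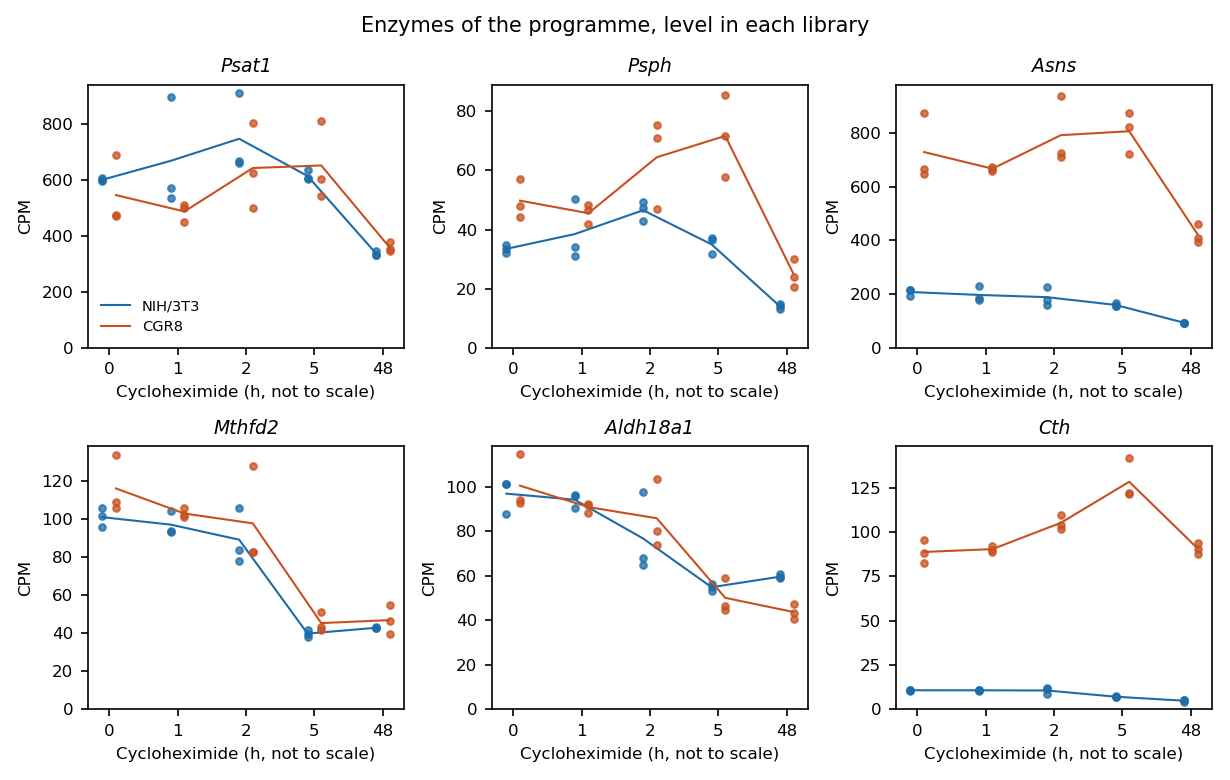
Level in CPM (y axis, from 0) of 6 enzymes in each library (points) against hours of cycloheximide (x axis, not to scale), with lines through the means of 3 libraries. Psat1, Psph and Asns were lowest at 48 h in both lines, whereas Mthfd2 and Aldh18a1 were already low at 5 h, and Cth at 5 h was above 0 h in CGR8 and below it in NIH/3T3.

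Of the 9 amino-acid and mitochondrial enzymes, all 9 were lower at 5 h in NIH/3T3, and in CGR8 6 were lower and 1 higher (Cth), against 27.1% and 27.2% of all genes lower. The medians were -0.57 and -0.49, beside -0.01 over all genes. At 48 h, 6 were lower and 1 higher (Lonp1) in each line, against 25.6% of all genes lower in NIH/3T3 and 15.6% in CGR8.

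Asns (ENSMUSG00000029752) encodes asparagine synthetase, a classic ATF4 target whose promoter window holds the element nearest to its start among those shown. Its level in NIH/3T3 was 213, 194 and 215 CPM at 0 h, 167, 156 and 154 CPM at 5 h and 92.8, 92.5 and 93.1 CPM at 48 h. The level of Asns in CGR8 was 648, 876 and 664 CPM at 0 h, 823, 876 and 722 CPM at 5 h and 462, 410.5 and 394 CPM at 48 h. The 48 h libraries were the lowest in both lines, and the 5 h libraries overlapped those of 0 h in CGR8. At 5 h it fell by 0.35 (SE 0.12, edgeR adjusted p = 0.0237) in NIH/3T3, a call lost without any 1 of 5 libraries (adjusted p of 0.0516 to 0.0836), and was 0.09 (SE 0.13, edgeR adjusted p = 0.579) in CGR8. Asns at 48 h fell by 1.19 (SE 0.12, edgeR adjusted p = 1e-06) in NIH/3T3 and fell by 0.80 (SE 0.13, edgeR adjusted p = 0.000298) in CGR8.

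Aldh18a1 and Pycr1 carry out successive steps of proline synthesis. Aldh18a1 (ENSMUSG00000025007) in CGR8 was 92.7, 115 and 94.3 CPM at 0 h, 46.6, 59.1 and 44.6 CPM at 5 h and 47.5, 43.1 and 40.5 CPM at 48 h. It fell by 1.06 (SE 0.14, edgeR adjusted p = 1.57e-05) at 5 h in CGR8 and fell by 0.79 (SE 0.12, edgeR adjusted p = 7.32e-05) in NIH/3T3. Pycr1 fell by 0.94 (SE 0.14, edgeR adjusted p = 5.92e-05) in NIH/3T3 and fell by 0.69 (SE 0.17, edgeR adjusted p = 0.00318) in CGR8 at 5 h. At 48 h both were still lower in both lines, Aldh18a1 by 0.73 and 1.21 and Pycr1 by 0.98 and 0.65. The CGR8 call of Pycr1 at 48 h was lost without 48 h B (0.0547) or 48 h C (0.0595).

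Pck2 (ENSMUSG00000040618), the mitochondrial enzyme that makes phosphoenolpyruvate, took different courses after 5 h. In CGR8 its level was 48.9, 56.05 and 46.2 CPM at 0 h, 34.7, 35.2 and 25.6 CPM at 5 h and 23.1, 13.9 and 13.5 CPM at 48 h. In NIH/3T3 it was 29.9, 31.9 and 30.3 CPM at 0 h, 18.1, 18.9 and 18.4 CPM at 5 h and 37.8, 34.8 and 38.8 CPM at 48 h. All 48 h libraries of NIH/3T3 lay above their 0 h libraries, and all of CGR8 below. Pck2 fell by 1.59 (SE 0.20, edgeR adjusted p = 2.59e-05) at 48 h in CGR8, against 0.24 (SE 0.14, edgeR adjusted p = 0.163) in NIH/3T3, and the difference between the lines was -1.85 (SE 0.25, edgeR adjusted p = 5.03e-06).

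Gpt2 (ENSMUSG00000031700), the mitochondrial alanine transaminase, was in CGR8 at 78.6, 81.6 and 81.6 CPM at 0 h, 33.6, 32.7 and 34.3 CPM at 5 h and 49.1, 37.6 and 35.5 CPM at 48 h. It fell by 1.32 (SE 0.13, edgeR adjusted p = 1.51e-06) at 5 h there and fell by 0.85 (SE 0.11, edgeR adjusted p = 1.22e-05) in NIH/3T3. By 48 h Gpt2 fell by 1.00 in CGR8 and was -0.17 (SE 0.11, edgeR adjusted p = 0.2) in NIH/3T3.

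Cth (ENSMUSG00000028179), the enzyme that releases cysteine from cystathionine, differed in direction. The NIH/3T3 libraries held 10.02, 11.1 and 10.8 CPM at 0 h, 7.18, 7.09 and 6.71 CPM at 5 h and 5.1, 3.97 and 5.12 CPM at 48 h. Its CGR8 libraries stood at 88.4, 95.5 and 82.5 CPM at 0 h, 122, 142 and 121 CPM at 5 h and 87.8, 90.6 and 93.96 CPM at 48 h. The 5 h libraries did not overlap those of 0 h in either line. At 5 h it fell by 0.57 (SE 0.13, edgeR adjusted p = 0.00127) in NIH/3T3 and rose by 0.48 (SE 0.09, edgeR adjusted p = 0.000341) in CGR8, and the difference between the lines was 1.14 (SE 0.15, edgeR adjusted p = 5.24e-06). At 48 h it fell by 1.20 (SE 0.13, edgeR adjusted p = 1.78e-06) in NIH/3T3 and was 0.02 (SE 0.09, edgeR adjusted p = 0.889) in CGR8.

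The transaminases Got1 and Bcat1 act on aspartate and on branched-chain amino acids. Got1 fell by 0.40 (SE 0.12, edgeR adjusted p = 0.00926) at 5 h in NIH/3T3 and fell by 0.49 (SE 0.14, edgeR adjusted p = 0.0072) in CGR8, the latter lost without 0 h B (0.0524). Bcat1 fell by 0.39 (SE 0.14, edgeR adjusted p = 0.0292) in NIH/3T3 and fell by 0.40 (SE 0.15, edgeR adjusted p = 0.0291) in CGR8. Both Bcat1 calls depended on single libraries, at adjusted p of 0.0629 to 0.0957 without any 1 of 5 libraries in NIH/3T3 and of 0.0885 to 0.182 without 0 h B, 5 h A or 5 h C in CGR8. At 48 h Got1 fell by 0.96 (SE 0.12, edgeR adjusted p = 6.18e-06) and Bcat1 fell by 0.86 (SE 0.14, edgeR adjusted p = 0.000101) in NIH/3T3. In CGR8 Bcat1 fell by 0.43 (SE 0.15, edgeR adjusted p = 0.0366) at 48 h, a call lost without 0 h B or any 1 of the 48 h libraries (0.0599 to 0.204), and Got1 was -0.38 (SE 0.14, edgeR adjusted p = 0.0511). Lonp1, a protease of the mitochondrial matrix, ended higher in both lines. Lonp1 at 48 h rose by 0.34 (SE 0.10, edgeR adjusted p = 0.00841) in NIH/3T3, from 140.3, 143 and 157 to 189.7, 184 and 193 CPM. In CGR8 it rose by 0.57 (SE 0.11, edgeR adjusted p = 0.000737), from 183, 198 and 192 to 285, 299 and 276 CPM.

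Across both lines, 29 genes were tested in each. At 5 h, 14 were lower in both lines, 1 was higher in both (Cebpg), and 3 went in opposite directions (Atf4, Stc2 and Cth). Of the 12369 genes tested in both lines, 18.4% were lower in both, 14.5% higher in both and 1.83% opposite. Phgdh, Psat1 and Nupr1 were called in neither. At 48 h, 16 were lower in both, 2 were higher in both (Cebpg and Lonp1) and Cebpb went in opposite directions, against 6.6%, 5.42% and 3.96% of those genes.

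A call in 1 line alone does not show that the lines differ, so the difference in the change was tested for each member. It was called for 1 member at 1 h (Atf4), against 0.16% of 17549 genes. At 2 h it was called for 6, against 2.02% of genes, 1.16% lower. These were Atf4, Cebpb, Chac1, Ddit4, Ppp1r15a and Stc2, and all 6 were lower in CGR8 relative to NIH/3T3. Without CGR8 2 h B the count was 3, and without CGR8 0 h B or NIH/3T3 2 h A it was 5, with the call of Cebpb lost in both (adjusted p of 0.179 and 0.06). At 5 h it was called for 9, against 13.3% of genes (8.18% higher, 5.09% lower), with 4 relatively higher in CGR8 (Ddit4, Ppp1r15a, Aldh1l2 and Cth) and 5 relatively lower (Atf4, Ddit3, Jdp2, Chac1 and Stc2). With library size alone as the scaling these counts were 2 and 8, and with no filter on low counts 3 and 8. Without CGR8 0 h B they were 4 and 4, with Jdp2 and Aldh1l2 lost (adjusted p of 0.0908 and 0.0569) and Asns added as relatively higher. At 48 h it was called for 14, against 21.9% of genes (9.78% higher, 12.1% lower), with 2 relatively higher (Got1 and Cth) and 12 relatively lower in CGR8. Phgdh, Psat1, Psph, Shmt2, Mthfd2 and Mthfd1l were called at none of the 4 times, with differences between -0.33 (Psph at 1 h, SE 0.24) and 0.46 (Psph at 5 h, SE 0.24).

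**Figure D4:**
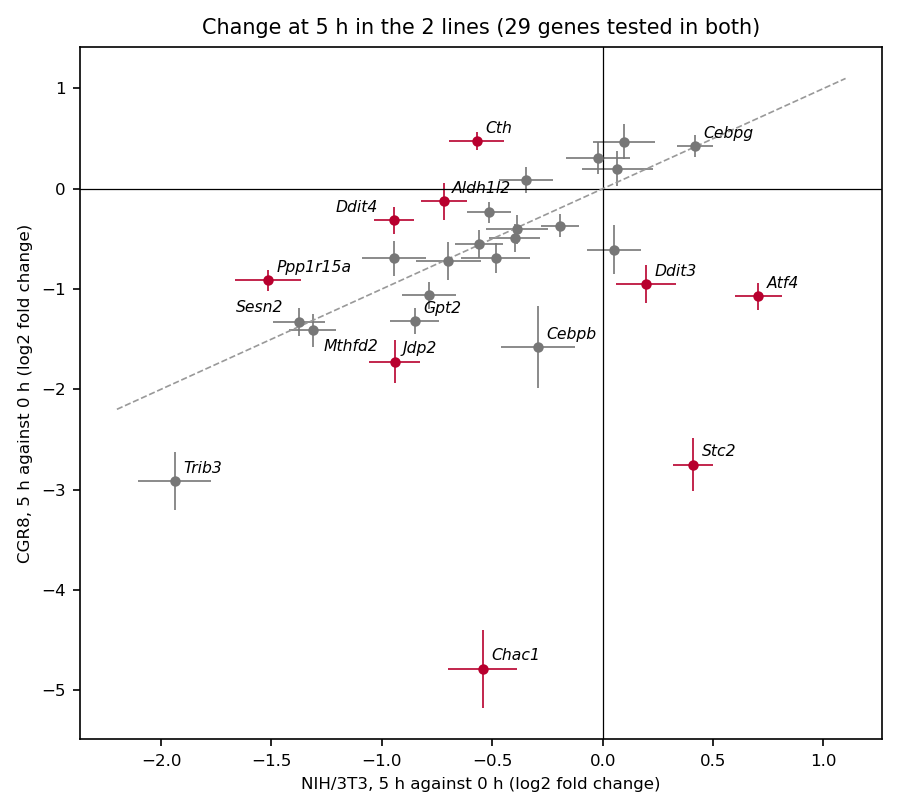
Log2 fold change at 5 h against 0 h in NIH/3T3 (x axis) and CGR8 (y axis) of the 29 genes tested in both lines, with standard errors as bars and the line of equal change dashed. Red marks the 9 genes whose change differed between the lines at an edgeR adjusted p under 0.05, among them Atf4 at 0.71 and -1.07 and Stc2 at 0.41 and -2.75.

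Before treatment, at 0 h, 15 members were higher and 9 lower in CGR8 than in NIH/3T3. These are 77.4% of the members, near the background of 79.1% of 17549 genes called (42.8% higher and 36.3% lower). The members' median difference was 0.20 and that of all genes 0.15. Atf4 was lower in CGR8 by 1.61 (SE 0.13, edgeR adjusted p = 3.14e-12), and the other members went both ways. Among these members, Asns and Trib3 were higher by 1.81 (SE 0.13, edgeR adjusted p = 4.55e-13) and 2.02 (SE 0.23, edgeR adjusted p = 5.87e-09). Phgdh, Stc2, Ddit3, Ddit4, Jdp2 and Nupr1 were lower, as Atf4 was. Cth was higher in CGR8 by 3.06 (SE 0.11, edgeR adjusted p = 2.42e-20) and Aldh1l2 was lower by 3.43 (SE 0.14, edgeR adjusted p = 5.22e-19). Cebpb was lower by 4.49 (SE 0.25, edgeR adjusted p = 9.91e-16). Vldlr and Gdf15 stood at 0 to 0.0428 and 0.0501 to 0.135 CPM in untreated NIH/3T3, and at 1.28 to 2.13 and 4.91 to 5.07 CPM in untreated CGR8. Chac1, at 0.51 higher (edgeR adjusted p = 0.0425), lost its call without any 1 of 5 libraries (0.052 to 0.134) and with a replicate block (0.0647).

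The step from 5 to 48 h was compared within each line. In NIH/3T3, 11 members were higher and 11 lower at 48 h than at 5 h, against 65.6% of genes called, 34.1% higher and 31.4% lower. In CGR8, 9 were higher and 8 lower, against 57.5% of genes called, 28.9% higher and 28.6% lower, so the share of members called in CGR8 (54.8%) was near the background. Among the feedback and stress effectors, 3 of 6 were higher and 2 lower in NIH/3T3, and 5 of 8 were higher in CGR8, where the 8 values ran from 0.01 to 1.97. Sesn2 rose by 1.76 (SE 0.12, edgeR adjusted p = 4.72e-09) in NIH/3T3 and 1.57 (SE 0.14, edgeR adjusted p = 2.97e-07) in CGR8. Ddit4 rose by 1.35 (SE 0.09, edgeR adjusted p = 4.56e-09) in NIH/3T3. In CGR8 it rose by 0.41 (SE 0.13, edgeR adjusted p = 0.017), a call lost without 5 h C (0.0608) or 48 h A (0.0614).

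Among the serine and folate enzymes, 1 was higher and 3 lower in NIH/3T3, and 4 were lower in CGR8. That is 57.1% called in each line, against 65.6% and 57.5% of all genes (31.4% and 28.6% lower). Psph fell by 1.39 (SE 0.15, edgeR adjusted p = 6.28e-07) and 1.48 (SE 0.18, edgeR adjusted p = 6.29e-06) between 5 and 48 h in NIH/3T3 and CGR8. Psat1 fell by 0.93 (SE 0.16, edgeR adjusted p = 0.000102) and 0.82 (SE 0.18, edgeR adjusted p = 0.000953), and Phgdh by 0.77 and 0.90. Asns fell alongside them, by 0.84 (SE 0.12, edgeR adjusted p = 1.56e-05) and 0.89 (SE 0.13, edgeR adjusted p = 3.53e-05). Atf4 fell by 1.00 (SE 0.10, edgeR adjusted p = 5.04e-07) in NIH/3T3. In CGR8 it rose by 0.34 (SE 0.14, edgeR adjusted p = 0.0394) with overlapping groups, and that call was lost without 5 h B, 5 h C, 48 h A or 48 h B (0.0859 to 0.196).

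**Figure D5:**
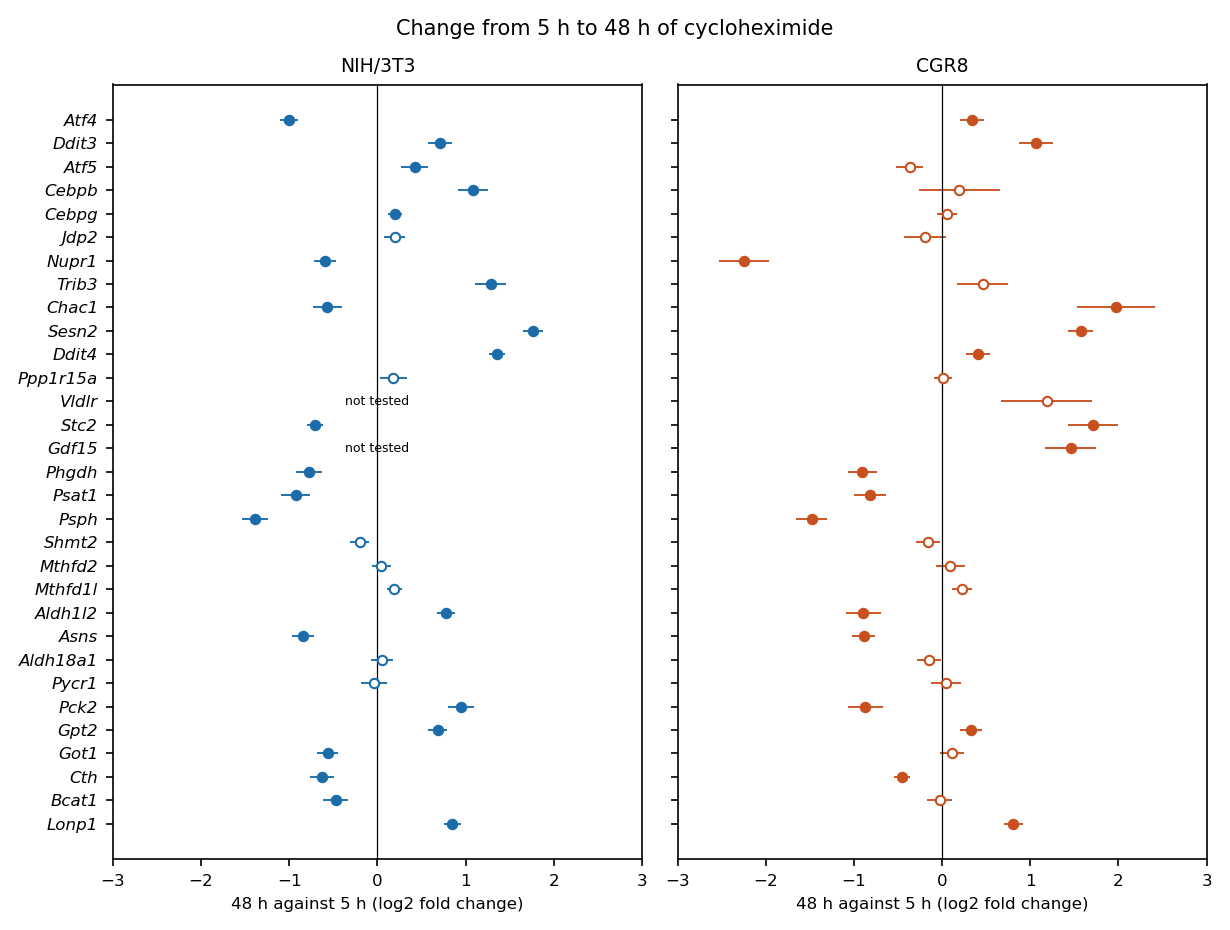
Log2 fold change from 5 h to 48 h (x axis) with its standard error for each of the 31 genes (rows, in the order of the 4 roles) in NIH/3T3 (left) and CGR8 (right). Filled points had an edgeR adjusted p under 0.05 and open points did not, and Sesn2 (1.76 and 1.57) and Psph (-1.39 and -1.48) moved in opposite directions from each other in both lines.

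Neighbouring genes of the pathway were read from lists of their own. Of 9 amino-acid transporters, NIH/3T3 had 8 lower and 1 higher at 5 h, and CGR8 had 6 lower, with medians of -0.98 and -1.31 beside -0.01 over all genes in each line. Of all genes, 27.1% and 27.2% were lower. The 1 with the widest fitted change was Slc7a3 in NIH/3T3, a carrier of cationic amino acids that had 18 to 25 counts per library at 0 h and 1 to 8 at 5 h. In CGR8 it was Slc6a9, a glycine carrier, with 65 to 115 counts at 0 h and 1 to 3 at 5 h. Of 12 cytosolic tRNA synthetases, which charge tRNA with amino acids, 9 were lower at 5 h in NIH/3T3 and 6 in CGR8, against the same 27.1% and 27.2%, with medians of -0.34 and -0.23. Aars1 fell by 1.22 (SE 0.12, edgeR adjusted p = 1.08e-06) in NIH/3T3, from 328, 297 and 343 to 139.9, 124 and 142 CPM, and Iars1 fell by 0.81 (SE 0.12, edgeR adjusted p = 4.87e-05) in CGR8.

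Of 16 genes for eIF2, its exchange factor, its kinases and their regulators, 5 were higher and 6 lower at 5 h in each line, with medians of 0.04 in NIH/3T3 and 0.21 in CGR8. The called share was 68.8% in each line, against 51% and 52.1% of all genes. Eif2ak3, the kinase PERK of the endoplasmic reticulum, fell by 1.01 (SE 0.12, edgeR adjusted p = 4.6e-06) in NIH/3T3, from 13.6, 13.9 and 13.2 to 6.52, 6.5 and 6.71 CPM. Impact, which inhibits activation of the kinase GCN2, fell by 0.96 (SE 0.13, edgeR adjusted p = 2.18e-05) in CGR8. Of the other enzymes of folate, methionine and glycine metabolism, 5 were higher and 4 lower of 20 tested in NIH/3T3, and 7 higher and 6 lower of 21 in CGR8, which is 45% and 61.9% called, against 51% and 52.1% of all genes. Aldh1l1, the cytosolic counterpart of Aldh1l2, fell by 1.06 (SE 0.18, edgeR adjusted p = 0.000123) in NIH/3T3.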

How the data were processed

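RNA was sequenced from 30 libraries, 15 per line. Per the labels' protocols, RNA went through a stranded mRNA ligation kit, and the authors deposited raw counts per gene. The submitters' processing notes name STAR, DESeq2 and build GRCm39 without their roles, and the counting tool, its use of strand and the annotation release are not given in the sources used here. Symbols came from GENCODE M21 on GRCm38 with version suffixes ignored: 51880 of 57186 identifiers (90.7%) had one. Of 2 identifiers for Ddit3, the 1 with counts was used. Overlapping genes were read from the same annotation.

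The tests ran in edgeR 4.0.16 under R 4.3.3, with 1 coefficient per line and time. Genes were kept by filterByExpr (minimum count 10, minimum total 15), which left 13941 in NIH/3T3, 15933 in CGR8 and 17549 in the fit of both lines. TMM factors, the quasi-likelihood F test and Benjamini-Hochberg adjustment over all genes tested were used, within each line's 15 libraries, and in all 30 for the untreated lines and for differences between lines. Standard errors were derived from the F statistic. CPM used 1 set of TMM factors over all 30 libraries.

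The members and lists were chosen with earlier results of these data known. Values in every library of the times shown are given for Atf4 and for the members with the larger changes, up to 12 per line. These members were called with a log2 change of at least 1 in size and at least 5 CPM in the higher group. For most of them some times were left out. Library values of some members outside this rule, such as Cebpg, Psat1, Ddit4 and Lonp1, are printed as well, and other values are given by role. From each list the gene with the widest called change at 5 h is named, except where the result is not reported here. The alternatives were RLE factors, library size alone, DESeq2 1.42.0, no filter, a block for the replicate letter, and removal of each library in turn. The fit was tested on simulated counts. Totals of 18.2 to 30.5 M counts leave genes with few counts the least precise.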

Additional observations from a re-analysis of the deposited data

Results flagged for a closer look

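The following members are listed because their change against 0 h differed between the lines in edgeR's test of that difference. Values are the log2 change in CGR8 minus that in NIH/3T3, so a negative value means a lower course in CGR8. At 1 h this was Atf4 at -0.95. At 2 h these were Atf4 at -1.68, Cebpb at -1.52, Chac1 at -2.14, Ddit4 at -0.64, Ppp1r15a at -1.37 and Stc2 at -0.88. The calls of Cebpb, Ddit4 and Stc2 were each lost without some single libraries, at adjusted p of up to 0.179, 0.109 and 0.102, and that of Ddit4 also with no filter (0.207).

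At 5 h these were Atf4 at -1.69, Ddit3 at -1.06, Jdp2 at -0.695, Ddit4 at 0.72, Ppp1r15a at 0.69, Stc2 at -3.08, Aldh1l2 at 0.68 and Cth at 1.14. Chac1 also differed (adjusted p = 9.21e-08), with a mean of 9.33 counts at 5 h in CGR8. Single libraries ended the calls of Aldh1l2, Ddit4, Jdp2 and Ppp1r15a, at adjusted p of up to 0.0912, 0.0701, 0.0908 and 0.196. That of Ppp1r15a rose to 0.196 without CGR8 5 h A. Library size alone as the scaling also ended the calls of Aldh1l2 (0.165) and Ppp1r15a (0.0896). With no filter on low counts those of Aldh1l2 (0.112) and Jdp2 (0.0792) were lost.

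At 48 h these were Ddit3 at -0.81, Atf5 at -1.01, Cebpb at -2.18, Jdp2 at -1.19, Nupr1 at -2.32, Trib3 at -1.81, Chac1 at -1.72 and Stc2 at -0.76. Among the enzymes they were Aldh1l2 at -1.09, Pck2 at -1.85, Gpt2 at -0.84, Got1 at 0.57 and Cth at 1.20. Gdf15 also differed (adjusted p = 0.00026), with a mean of 2.67 counts at 0 h in NIH/3T3. Single libraries ended the calls of Ddit3, Got1 and Stc2, at adjusted p of up to 0.0504, 0.0866 and 0.0574.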

How the results depend on the processing

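Of 213 calls of members over 15 comparisons, 172 held under every alternative run and 41 were lost in at least 1. Of 5749 alternative values, 5513 stayed on their side of the threshold, 157 lost a call, 79 gained one and 0 of the called values changed sign. Direction was compared only for values called in the main fit or in the alternative, so uncalled values may have changed sign. For CGR8 at 1 h the 2 called members became 1 with library size alone as the scaling and 4 with no filter on low counts. With 1 library left out in turn, the count ranged from 0 to 1 in CGR8 at 1 h, from 8 to 16 in NIH/3T3 at 2 h (16 without 2 h A), from 7 to 17 in CGR8 at 2 h (7 without 0 h A) and from 3 to 7 for the difference between lines at 2 h (3 without CGR8 2 h B). The cause was not tested. Scaling by library size alone moved the median of all genes at 5 h in CGR8 from -0.01 to -0.12, and in the 5 h difference between lines from 0.13 to -0.06.

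With the replicate block, members called at 2, 5 and 48 h numbered 12, 22 and 24 in NIH/3T3 and 13, 26 and 26 in CGR8, where 2 were called at 1 h, and the differences between lines numbered 1, 6, 11 and 15. The letters were not taken as pairs, because the labels do not say that a letter marks a shared culture, batch or day. In 7 of 24 comparisons of same-letter libraries the correlation of deviations was over 0.1 (range -0.523 to 0.373). These values cannot decide pairing, because deviations from a mean of 3 libraries depend on each other. Totals of 18.2 to 30.5 M counts limit most what can be said of Vldlr, Gdf15, Cebpb, Chac1 and Stc2, which had under 20 counts in some libraries.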
